A study of Mus musculus with 50 samples.

Results

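The 10 genes described here, Slc40a1, Hmox1, Cd163, Spic, C1qa, C1qb, C1qc, Fcna, Axl and Vcam1, are known from macrophages that recycle iron, and they were followed among 33924 gene symbols through sorted blood-forming cells of mice with leukaemia mutations. They were picked by name because several of them are lower in LSK cells of Flt3 mutant mice than of WT mice. That contrast is therefore given as a description with no test, and the tests below concern other cells and other contrasts. LSK cells are lineage-negative, Sca-1-positive and Kit-positive cells, which hold the blood stem cells, and GMP are granulocyte-monocyte progenitors.

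Iron-recycling macrophages of the spleen, liver and marrow engulf old red cells, break down their haem and return the iron to the blood. Haem oxygenase opens the haem ring, the exporter ferroportin lets iron out of the cell, and scavenger receptors take up free haemoglobin. The same macrophages make complement C1q, carry receptors for dying cells and, in the marrow, hold developing red cells around themselves through adhesion molecules such as Vcam1. LSK and GMP are not macrophages, so the levels below are those of macrophage genes in progenitor sorts.

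RNA was counted in 50 libraries of 16 groups, held in 2 tables. The first table has LSK and GMP of WT mice at 4 weeks and of Flt3 mice (a single Flt3 mutation) at 2, 4, 6 and 8 weeks, with 3 libraries in each group. In the second, 4 LSK and 4 GMP libraries come from Npm1 Flt3 mice and 3 of each sort from Dnmt3a Flt3 mice. It also has Lin- HSPCs, that is progenitors without lineage markers, from Npm1 Flt3 mice that had TAM (tamoxifen) or vehicle for 7 days, with 3 libraries per treatment. Per the labels, Cre, Dre or Flp recombinase switched the mutations on, and tamoxifen acted through Cre to remove the mutant Flt3 allele. Both TAM and vehicle mice therefore carry the Npm1 mutation, and the second table has no WT library among those used here. Mice were killed at the stated time or when they fell ill. The labels give neither the age of the animals nor the promoter that drives a recombinase. WT exists at 4 weeks only, and the sample codes of WT and Flt3 mice have different prefixes, so an effect of genotype and one of the code series cannot be told apart. The codes of sorted Npm1 Flt3 and Dnmt3a Flt3 libraries also have different prefixes, and the same limit holds for their comparison. The labels do not say that replicates are separate animals, so p-values measure the spread between libraries.

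Levels are given on the counts-per-million scale (CPM), that is relative to the total count of the library. Totals lay between 306571 and 8249135 counts in the first table and between 15053592 and 128057407 in the second, and only values within a table are compared. Flt3 8w GMP replicate 2 held 1942 counts and is left out of levels and figures. Dnmt3a Flt3 LSK replicate 1 and GMP replicate 2 carry a title and a sample code that name different cell types and are left out of tests. The WT sorts carried the genes that define them. The summed CPM of 8 stem cell and gate genes was 1609 to 1774 in WT LSK and 587 to 686 in WT GMP, and that of 8 granule and gate genes was 3160 to 4863 in WT LSK and 45845 to 55780 in WT GMP. In Flt3 mice the stem cell and gate genes overlapped between the sorts, at 712 to 1398 CPM in LSK and 202 to 972 CPM in GMP. The granule and gate genes did not, at 1783 to 5437 CPM in LSK and 15227 to 31640 CPM in GMP.

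By their positions in GRCm38 (GENCODE) the 10 genes lie on 8 chromosomes, all of them protein-coding. C1qb, C1qc and C1qa stand next to each other on the minus strand at chr4:136880129-136898803, a stretch of 18675 bases with 0 other genes inside. Slc40a1 lies at chr1:45908068-45926523, Hmox1 at chr8:75093621-75100589, Cd163 at chr6:124304656-124330527 and Spic at chr10:88674772-88685015. Fcna lies at chr2:25624666-25628030, Axl at chr7:25757273-25788705 and Vcam1 at chr3:116109949-116129688. An antisense gene overlaps Fcna and another overlaps Vcam1. Whether counting used strand is not given in the sources used here, so reads of these 2 genes and of their antisense partners cannot be told apart.

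RefSeq start sites were at hand for 6 of the 10 genes, and the 250 bases upstream are shown for the 3 whose window lies wholly outside the annotated gene. Of the 10 genes, C1qb had the largest change after TAM, Axl changed less, and Cd163 did not move with the rest. A link between the sequences and these changes was not tested. The sequences are from RefSeq, build GRCm38.p6, and read 5′ to 3′ on the strand of the gene. The windows are chr4:136886201-136886450 (minus strand) for C1qb, chr7:25788734-25788983 (minus) for Axl and chr6:124304401-124304650 (plus) for Cd163. Capitals mark a match, on either strand, to GAGGAA, the core of the site of the myeloid factor PU.1 and its relative Spi-C, or to TGACNNNGC, the core of the antioxidant response element.
C1qb: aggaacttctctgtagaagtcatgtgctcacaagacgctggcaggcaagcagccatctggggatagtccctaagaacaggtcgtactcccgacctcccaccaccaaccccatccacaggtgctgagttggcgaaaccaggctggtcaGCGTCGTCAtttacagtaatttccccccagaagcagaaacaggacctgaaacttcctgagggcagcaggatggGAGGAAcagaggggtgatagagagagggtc
Axl: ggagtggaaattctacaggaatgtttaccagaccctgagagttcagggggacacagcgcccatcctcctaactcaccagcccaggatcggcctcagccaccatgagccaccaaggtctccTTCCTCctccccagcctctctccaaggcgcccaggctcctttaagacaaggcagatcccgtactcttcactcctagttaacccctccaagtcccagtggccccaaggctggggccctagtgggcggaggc
Cd163: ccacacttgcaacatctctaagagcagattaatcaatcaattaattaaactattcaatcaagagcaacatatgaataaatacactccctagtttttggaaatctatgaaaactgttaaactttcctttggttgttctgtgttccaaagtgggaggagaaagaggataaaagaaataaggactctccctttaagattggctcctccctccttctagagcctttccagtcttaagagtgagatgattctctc

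Of the 6 windows 4 held GAGGAA (Fcna, C1qb, C1qc and Axl), which stands in 23.3% of 32851 RefSeq promoters of the same length. TGACNNNGC stood in 1 of the 6 (C1qb) against 10.2% of all promoters, and the AP-1 site TGAGTCA in 0 of the 6 against 4.46%. In C1qb the matches of the 2 motifs do not overlap. A match is a description of these letters, not evidence that a factor binds there.

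In WT mice all 10 genes were higher in LSK than in GMP, with ranges that did not overlap. This holds for 29.8% of all genes with counts in these groups. Since the WT LSK libraries took part in the choice of the genes, these levels are a description. Slc40a1, the gene of the iron exporter ferroportin, measured 47.7, 100.1 and 319 CPM in the 3 WT LSK libraries and 16.8, 14.4 and 22.1 CPM in WT GMP. C1qb, a chain of complement C1q, measured 89.8, 169.4 and 427 CPM in WT LSK and 12.8, 17.9 and 26.8 CPM in WT GMP. Replicate 3 was the highest of the WT LSK libraries for 9 of the 10 genes, and replicate 1 the lowest for 10 of 10. The spread among WT LSK libraries was thus shared by the genes, and in GMP replicate 3, which has the same code number, was the highest for 8 of 10.

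The remaining genes had the same order. C1qc measured 69.1, 135 and 467 CPM in WT LSK, C1qa, the third chain, 12.3, 12.4 and 66.8 CPM, and Fcna, the gene of the lectin ficolin A, 50.2, 120 and 408 CPM. Axl, a receptor tyrosine kinase that helps to take up dying cells, measured 41.8, 87.8 and 290 CPM, and Vcam1, which binds integrins on neighbouring cells, 41.4, 89.0 and 303 CPM. Spic, which encodes the factor Spi-C that red pulp macrophages need, measured 15.1, 34.6 and 69.1 CPM. Hmox1, the gene of inducible haem oxygenase, measured 7.37, 8.65 and 50.7 CPM, and Cd163, the haemoglobin scavenger receptor, 7.02, 16.1 and 14.2 CPM. Cd163 was the only one of the 10 in which replicate 3 was not the highest.

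In LSK of Flt3 mice the genes were at 22.0 CPM or less at every time, and several libraries held no count of some of them. Slc40a1 ranged from 0 to 3.92 CPM over the 12 Flt3 LSK libraries (median 1.81), C1qb from 2.37 to 22.0 CPM (median 8.09), and Fcna from 0 to 7.95 CPM (median 2.08). Vcam1 ranged from 0.806 to 11.4 CPM (median 3.62) and Axl from 0 to 11.2 CPM (median 4.98). C1qa had no count in 8 of the 12 libraries. The highest Flt3 LSK library lay below the lowest WT LSK library for 9 of the 10 genes, where 4.25% of all genes with counts did so. Cd163 alone overlapped, with 1.83 to 9.404 CPM against 7.02 to 16.1 CPM. At 4 weeks, the time that both genotypes share, all 10 were below WT without overlap, against 12.6% of all genes.

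The fitted log2 changes of Flt3 LSK against WT LSK (mean of the 4 times) describe the same gap and carry no test, because this contrast chose the genes. They were -6.40 ± 0.46 (SE) for Slc40a1, -7.12 ± 0.66 for C1qa, -4.70 ± 0.45 for C1qb and -5.56 ± 0.52 for C1qc. Fcna was at -6.17 ± 0.62, Vcam1 at -5.14 ± 0.52 and Axl at -4.92 ± 0.51. Spic was at -3.74 ± 0.44 and Cd163 at -1.28 ± 0.45, the smallest of the 9 in this fit. Hmox1 was below the filter on low counts, so 9 of the 10 were fitted. Without WT LSK replicate 3, the library with the highest levels, Slc40a1 was at -5.30, C1qa at -5.73, C1qc at -4.41, Vcam1 at -3.94 and Axl at -3.78. Without Flt3 2w LSK replicate 2, Spic was at -4.95. The order of the genes apart from Cd163 thus depends on single libraries.

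**Figure D1:**
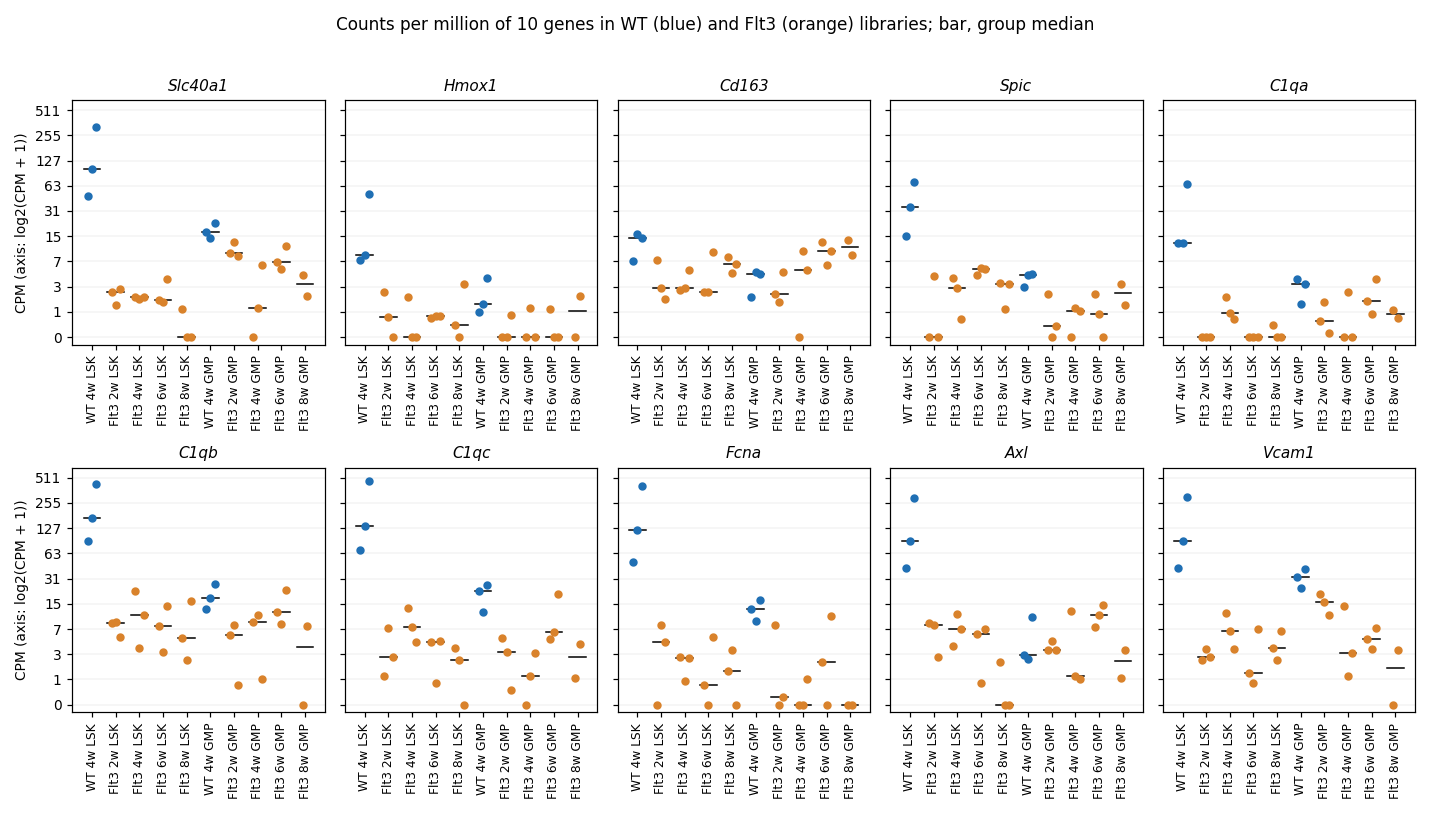
CPM of the 10 genes (vertical axis, log2(CPM + 1) scale with CPM at the ticks) in each library of WT (blue) and Flt3 mice (orange), by sort and week; points are libraries and bars group medians. WT LSK stands above all Flt3 LSK groups for 9 of the 10 genes, Cd163 overlaps, and WT GMP lies between them for genes such as Slc40a1 and Vcam1.

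Levels of other cell markers also differed between WT LSK and Flt3 LSK. In bulk RNA, fewer cells of a type and less RNA of a gene per cell cannot be told apart. The summed CPM of 20 other macrophage markers was 1271 to 2675 in WT LSK and 271 to 1173 in Flt3 LSK, and the ranges did not overlap. Among the defining markers, Cd5l measured 18.2, 33.4 and 99.5 CPM in WT LSK and 0 to 3.92 CPM in Flt3 LSK, and Emr1 (F4/80) measured 2.46, 26.0 and 49.2 CPM in WT LSK and 2.89 to 16.3 CPM in Flt3 LSK, with overlap. Cd68, a broader marker, measured 63.5, 70.5 and 192 CPM in WT LSK and 34.6 to 258 CPM in Flt3 LSK (median 77.2), and was not lower. Vsig4 was 0, 0 and 2.69 CPM in WT LSK and 0 in every Flt3 LSK library, and Siglec1 was 0.351, 2.47 and 3.07 CPM in WT LSK. Of all genes tested, 15.0% passed in Flt3 LSK against WT LSK and 8.07% were lower. Of the 8 macrophage markers that passed the filter, 5 fell in Flt3 LSK (Apoe, Cd5l, Sirpa, Mrc1 and Emr1) and 0 rose, with a median log2 change of -1.59 against -0.00 over all genes tested. Erythroid markers fell as well, 11 of 11 tested, with a median log2 change of -5.08 and a summed CPM of 1662 to 1997 in WT LSK against 108 to 454 in Flt3 LSK. Stem cell and gate genes (1609 to 1774 against 712 to 1398 summed CPM) and stromal and endothelial markers (89.0 to 119.8 against 34.1 to 82.4) were lower without overlap too, and monocyte markers were higher (409 to 917 against 2007 to 17987). The 2-week Flt3 LSK libraries stood apart in lymphocyte and plasma cell markers, with a summed CPM of 5579 to 15416 against 4.56 to 31.4 at the later times, while the 10 genes summed to 22.9 to 44.8 CPM there and 16.1 to 66.1 CPM at the later times. The part of any of these cell types in these levels was not tested.

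Across 29 libraries of the first table the mean of the 10 genes had its closest match in Hpgd, which degrades prostaglandins, with Pearson r = 0.95 on log2(CPM + 1). Ubd (0.91), Pla2g7 (0.90), Lpl (0.89), Fabp4 (0.89), Cd5l (0.89), Cmbl (0.89) and Hpgds (0.88) followed. The ranking started from 12065 genes with a mean of at least 1 CPM and left out the 10 genes and all predicted or clone-named genes. Hpgd measured 3.86 to 28.8 CPM in WT LSK and at most 3.48 CPM in any other library, so it too was highest in the 3 WT LSK libraries. The likeness is a description over libraries that share sorts and animals, and it carries no p.

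The GMP of Flt3 mice were not used to choose the genes, though WT LSK and GMP libraries of the same number share a sample code. The question was whether the genes are also lower in Flt3 GMP. Slc40a1 measured 16.8, 14.4 and 22.1 CPM in WT GMP and 0 to 12.8 CPM over 11 Flt3 GMP libraries (median 6.31). Vcam1 measured 32.5, 23.4 and 40.9 CPM in WT GMP and 0 to 20.1 CPM in Flt3 GMP (median 5.11). These were the 2 genes of the 10 whose ranges did not overlap, against 2.62% of all genes with counts. C1qc measured 21.7, 11.9 and 26.2 CPM in WT GMP and 0 to 19.9 CPM in Flt3 GMP (median 3.20), and Fcna measured 12.8, 8.96 and 16.8 CPM against 0 to 10.3 CPM (median 0). Flt3 6w GMP replicate 3 held the highest C1qc and Fcna of the Flt3 GMP and overlapped WT.

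By edgeR's quasi-likelihood test with Benjamini-Hochberg adjustment over 9122 genes, 5 of the 10 genes fell in Flt3 GMP against WT GMP and 0 rose. Of all genes tested, 26.2% passed and 13.2% were lower. Slc40a1, C1qc and Fcna passed the filter with WT GMP in the fit but not among Flt3 GMP alone. For these genes the filter favoured a fall in advance, here and at 4 weeks. Vcam1 fell by 2.66 ± 0.36 (adjusted p = 1.41e-07), Slc40a1 by 1.91 ± 0.40 (adjusted p = 0.000246) and C1qc by 2.71 ± 0.48 (adjusted p = 3.64e-05) on the log2 scale. Fcna fell by 4.07 ± 0.96 (adjusted p = 0.00412) and C1qb by 1.79 ± 0.53 (adjusted p = 0.0156). Iron export, complement, lectin and adhesion genes were thus among those lower. Cd163 was at 0.58 ± 0.53 (adjusted p = 0.453) and Axl at -0.32 ± 0.56 (adjusted p = 0.727), and neither passed. C1qa, Hmox1 and Spic were below the filter on low counts, with at most 3.98, 4.02 and 4.69 CPM in any GMP library. C1qb no longer passed without WT GMP replicate 3 (-1.48, adjusted p = 0.101), and C1qb and Fcna did not pass by the DESeq2 Wald test with the library of 1942 counts (adjusted p = 0.21 and 0.0739).

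At 4 weeks alone, the ranges of 6 of the 10 lay below WT GMP without overlap, against 8.08% of all genes. By the test 4 of the 10 fell in Flt3 GMP, where 15.0% of all genes passed and 7.77% were lower. Slc40a1 fell by 2.80 ± 0.64 (adjusted p = 0.0016), from the WT values above to 0, 1.20 and 6.31 CPM. Vcam1 fell by 2.78 ± 0.55 (adjusted p = 0.000277), to 14.0, 1.20 and 3.15 CPM, and C1qc by 3.71 ± 0.82 (adjusted p = 0.00147), to 0, 1.20 and 3.15 CPM. Fcna passed narrowly (adjusted p = 0.0446) on 1 count in the 3 Flt3 4w GMP libraries against 56 in WT GMP. Its ratio of WT to Flt3 was 29.2, with an exact 95% counting interval of 5.03 to 1174, and it did not pass when Flt3 4w GMP replicate 1, 2 or 3 or WT GMP replicate 1 or 3 was left out (adjusted p = 0.0819 to 0.165). C1qb was at -1.75 ± 0.78 (adjusted p = 0.142).

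The lists of related and marker genes went in different directions in Flt3 GMP. Of 7 macrophage markers tested, 4 rose (Cd68, Csf1r, Lgals3 and Mrc1) and 2 fell (Apoe and Sirpa), with a median log2 change of 1.09 against 0.04 over all genes. Lgals3, a galectin of monocytes and macrophages, rose by 3.12 ± 0.37 and Apoe, which carries lipids, fell by 1.41 ± 0.16. Of 17 haem and iron genes 2 rose and 3 fell, among them Cp, the copper enzyme that oxidises exported iron (8.68 ± 0.73), and Blvrb, a biliverdin reductase (-1.42 ± 0.24). Of 7 complement genes 1 rose and 1 fell. Erythroid markers fell in 6 of 6 tested (median -2.34). Their summed CPM was 231 to 335 in WT GMP and 264 to 387 in Flt3 2w GMP, so the sum was not lower at 2 weeks. At 4 to 8 weeks it was 35.8 to 72.5. Monocyte markers rose in 7 of 11 and fell in 1 (median 2.10). Late neutrophil markers fell in 2 of 3 tested, S100a8 and S100a9, with a summed CPM of 329 to 742 in WT GMP against 1.20 to 146 in Flt3 GMP. The genes of the GMP sort fell in 7 of 8 (45845 to 55780 against 15227 to 31640 summed CPM). The part of these shifts in the fall of the 5 genes was not tested. The summed macrophage markers were 516 to 604 CPM in WT GMP and 492.6 to 1740 CPM in Flt3 GMP, with overlapping ranges. Siglec1, Vsig4 and Mertk were at most 1.72, 0 and 1.97 CPM in any GMP library of the first table.

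Over the weeks, levels in Flt3 LSK showed no trend that passed the test. Only C1qb and Axl passed the filter on low counts among the 10, with slopes of -0.12 ± 0.12 (adjusted p = 0.639) and -0.33 ± 0.14 log2 units per week (adjusted p = 0.195), and 0 of the 10 were called where 2.70% of all genes were. Unadjusted p-values stood under 0.05 for Axl alone, and DESeq2 called 0. In Flt3 GMP, Vcam1 measured 20.1, 16.0 and 10.7 CPM at 2 weeks, 14.0, 1.20 and 3.15 CPM at 4 weeks, 5.11, 3.63 and 7.16 CPM at 6 weeks, and 0 and 3.55 CPM at 8 weeks. The 2-week libraries were thus the highest apart from 1 library at 4 weeks. The slope was -0.49 ± 0.12 per week (adjusted p = 0.00417), where 12.2% of all genes tested were called and 9.27% were lower. It was the 1 call among the 3 of the 10 genes that passed the filter in this fit. It did not pass without Flt3 2w GMP replicate 1 (-0.43, adjusted p = 0.0559). Over 4 to 8 weeks alone 0 of the 10 were called, but Vcam1 was below the filter on low counts there. Its slope without the 2-week libraries was thus not tested. The 2-week GMP libraries also stood apart in monocyte markers (15012 to 23838 summed CPM against 2929 to 5613 later) and erythroid markers (264 to 387 against 35.8 to 72.5). Their TMM factors, which scale the libraries, were 0.71 to 0.77 in this fit, and the part of these differences in the slope was not tested. C1qb (0.14 ± 0.18) and Axl (0.06 ± 0.14) did not pass in GMP.

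The second table sets a second mutation beside Flt3. An effect of that mutation and one of the code series cannot be told apart in LSK or GMP. In LSK of Npm1 Flt3 and Dnmt3a Flt3 mice the genes were low, at most 18.9 CPM. The gene with the highest level was Axl in Dnmt3a Flt3 LSK and Cd163 in Npm1 Flt3 LSK. Axl measured 18.9 and 17.5 CPM in Dnmt3a Flt3 LSK and 2.87, 5.53, 1.38 and 0.330 CPM in Npm1 Flt3 LSK, with no overlap. C1qb measured 1.23 and 0.137 CPM in Dnmt3a Flt3 LSK and 6.50, 3.71, 7.10 and 3.15 CPM in Npm1 Flt3 LSK. Hmox1 measured 0.156 and 0.885 CPM against 7.17, 2.72, 5.08 and 5.62 CPM. Of the 10 genes 4 were higher without overlap (C1qa, C1qb, Hmox1 and Spic), against 13.6% of all genes, and Axl was lower, against 19.9%. By edgeR 0 of the 10 passed (3 at an unadjusted p under 0.05), where 14.4% of all genes did: Axl was at -2.89 ± 1.16 (adjusted p = 0.118), C1qb at 2.94 ± 1.06 (0.0826) and Hmox1 at 3.35 ± 1.25 (0.0923) for Npm1 Flt3 minus Dnmt3a Flt3. DESeq2, whose share of all genes called is not given here, called 4, among them C1qb, Hmox1 and Axl (adjusted p = 0.00205, 0.00635 and 0.0461). Slc40a1 was at 2.03 CPM in Dnmt3a Flt3 LSK replicate 3 and 0.0778 CPM in replicate 2, and without replicate 3 it passed at 5.39 (adjusted p = 0.0395) with 1 library left in that group.

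**Figure D2:**
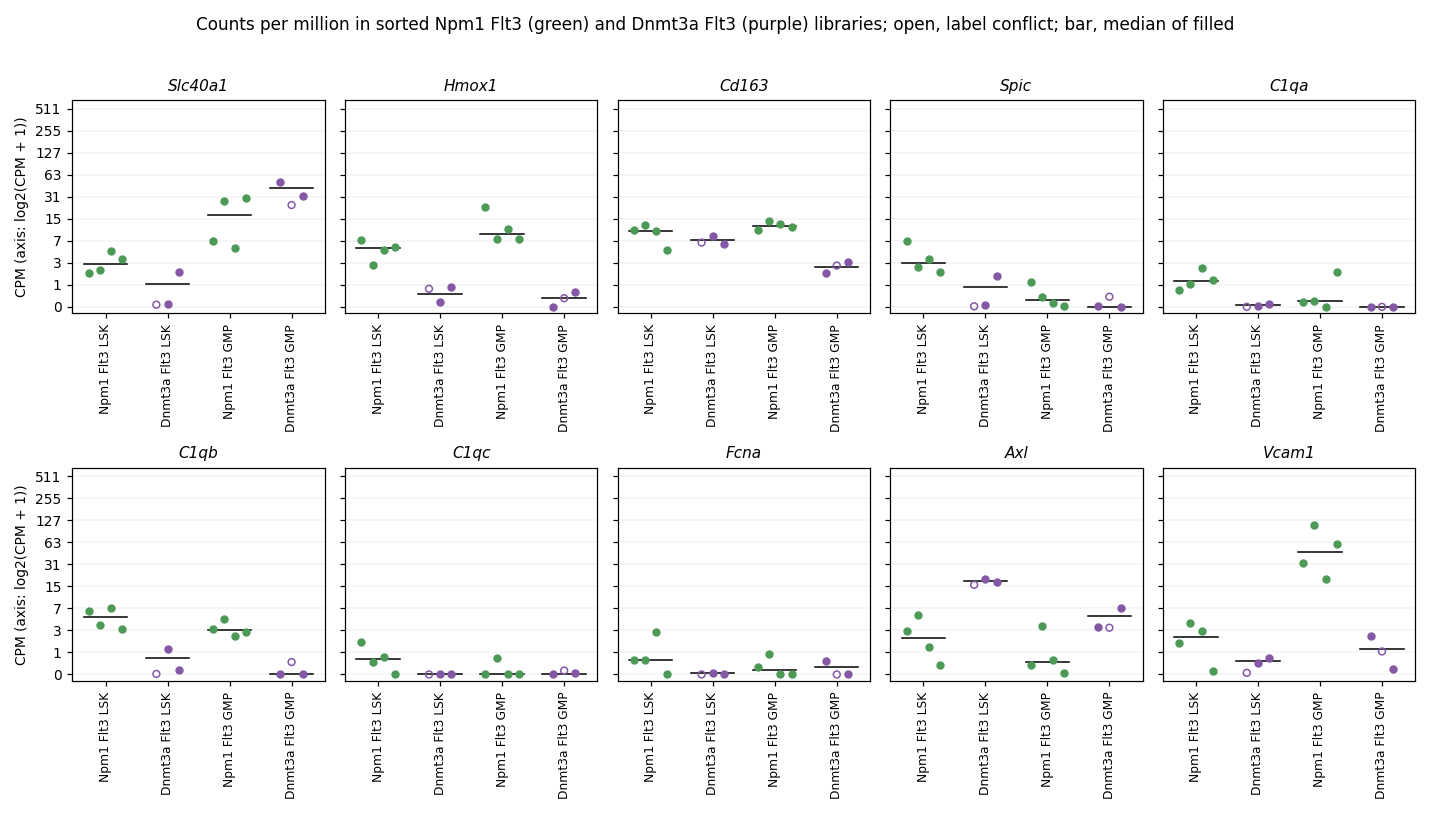
CPM of the 10 genes (vertical axis, log2(CPM + 1) scale with CPM at the ticks) in each sorted library of Npm1 Flt3 (green) and Dnmt3a Flt3 mice (purple); open points are the 2 libraries whose labels conflict, and bars are medians of the filled points. Vcam1 stands out in Npm1 Flt3 GMP at 19.1 to 109 CPM, and Axl in Dnmt3a Flt3 LSK at 17.5 and 18.9 CPM.

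In GMP 4 of the 10 genes were higher in Npm1 Flt3 than in Dnmt3a Flt3 and 0 lower, where 15.7% of all genes passed and 8.52% were higher. Vcam1 measured 32.4, 109, 19.1 and 60.3 CPM in Npm1 Flt3 GMP and 2.31 and 0.182 CPM in Dnmt3a Flt3 GMP, a log2 change of 5.39 ± 1.32 (adjusted p = 0.0127). Hmox1 measured 22.4, 7.56, 10.6 and 7.51 CPM against 0 and 0.619 CPM (5.15 ± 1.38, adjusted p = 0.0205), and Cd163 measured 10.3, 14.1, 12.4 and 11.4 CPM against 1.93 and 3.15 CPM (2.13 ± 0.48, adjusted p = 0.00753). The adhesion gene, haem oxygenase and the haemoglobin receptor were thus apart without overlap. C1qb measured 3.24, 4.81, 2.31 and 2.86 CPM against 0.0259 and 0 CPM (adjusted p = 0.00224), that is 1282 counts against 2, and its ratio of pooled CPM was 291 with an exact 95% counting interval of 80.3 to 2403. In all 5 of the 10 were higher without overlap, with Spic as the fifth, against 15.1% of all genes. Slc40a1 alone lay lower without overlap, against 16.5% of all genes, with 7.00, 26.9, 5.30 and 30.3 CPM in Npm1 Flt3 GMP against 50.3 and 31.5 CPM (-1.33 ± 0.86, adjusted p = 0.353), and did not pass.

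With only 2 Dnmt3a Flt3 GMP libraries these calls rest on few samples. Without replicate 1 of them, Hmox1 (adjusted p = 0.0623) and Cd163 (0.126) no longer passed and 2 of the 10 were called, and without replicate 3 Vcam1 no longer passed (0.114). C1qa, C1qc and Fcna stayed under 3 CPM in all sorted libraries of this table. C1qa passed by DESeq2, without Npm1 Flt3 GMP replicate 3 or with the 2 conflicting libraries placed by title. Spic passed only without Npm1 Flt3 GMP replicate 4 (6.28, adjusted p = 0.0447) or by DESeq2, and Axl without Npm1 Flt3 GMP replicate 2 (-4.10, adjusted p = 0.0248) or with the title number as a block (-3.27, adjusted p = 0.022). Monocyte markers rose in 11 of 12 tested in the same contrast (median log2 change 5.15 against -0.00 over all genes), and macrophage markers in 4 of 20, led by Lgals3 and Csf1r, while Itgad fell. The summed macrophage markers were 1122 to 1410 CPM in Npm1 Flt3 GMP and 240 to 241 CPM in Dnmt3a Flt3 GMP, with Vsig4 and Siglec1 at most 1.24 and 0.274 CPM in Npm1 Flt3 GMP. Their part in the result was not tested.

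Within Npm1 Flt3 mice Vcam1 differed between the sorts in the main fit, but did not pass with the animal as a block. It measured 1.67, 3.99, 2.94 and 0.114 CPM in LSK against the 19.1 to 109 CPM in GMP, a log2 change of -4.88 ± 0.94 for LSK minus GMP (adjusted p = 0.00768). It was the 1 call among the 10 genes, where 4.62% of all genes were called and 2.27% were lower. Slc40a1 was also lower in LSK, at 1.89, 2.17, 4.86 and 3.54 CPM, and was at -2.61 ± 0.77 (adjusted p = 0.0738). The order of WT mice, in which both genes were higher in LSK, was thus not seen in these mice, though the 2 sets stand in different tables and their difference was not tested. LSK and GMP replicates 1, 2 and 4 share a sample code, which the main fit did not use. Their deviations from group means had correlations of 0.31, 0.26 and 0.07. In a fit of libraries with a shared code, Slc40a1 passed and Vcam1 did not with the animal as a block (-3.13, adjusted p = 0.00148, and -5.97, adjusted p = 0.064). Slc40a1 also passed without Npm1 Flt3 GMP replicate 3 (-2.92, adjusted p = 0.0452). The gap between LSK and GMP did not differ between Npm1 Flt3 and Dnmt3a Flt3 at the threshold for any of the 10 by edgeR (4 at an unadjusted p under 0.05), where 0.273% of all genes were called. The smallest unadjusted p was that of C1qb (-4.97 ± 1.51, adjusted p = 0.334). DESeq2, whose share of all genes called is not given here, called 2.

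Over 12 sorted libraries of the second table the mean of the 7 genes with enough counts was most like L1cam (r = 0.97), a cell adhesion gene, followed by Ctsb (0.95), Gpr183 (0.94), Gdf3 (0.94), Syngr2 (0.94), Myadm (0.94), Bcl6 (0.94) and Anxa5 (0.93). None of these 8 is among the 8 of the first table. This ranking too left out predicted and clone-named genes, and the measure is a description over libraries that share genotypes.

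The last comparison asked what 7 days of TAM, which removes the mutant Flt3 allele, did to Lin- HSPCs of Npm1 Flt3 mice. Of the 10 genes, 8 rose and 0 fell by edgeR's quasi-likelihood test, where 31.4% of all genes passed, 10.1% higher and 21.3% lower. With the replicate number as a block, though no label pairs these libraries, 8 rose and 1, Cd163, fell. Complement led: C1qb measured 349, 432 and 279 CPM with TAM and 6.37, 6.42 and 7.02 CPM with vehicle, a log2 change of 4.54 ± 0.43 (adjusted p = 5.46e-09). C1qa measured 59.9, 75.5 and 53.1 CPM against 4.51, 1.04 and 0.856 CPM (3.88 ± 0.48, adjusted p = 8.93e-07), and C1qc 63.4, 106 and 50.01 CPM against 3.98, 1.25 and 2.37 CPM (3.83 ± 0.44, adjusted p = 2e-07). The 3 neighbouring C1q genes thus rose together, each without overlap.

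Among the iron genes, Slc40a1 measured 161, 212 and 88.1 CPM with TAM and 12.3, 10.9 and 6.51 CPM with vehicle (2.76 ± 0.43, adjusted p = 1.11e-05). Spic measured 36.6, 66.6 and 33.5 CPM against 4.92, 1.60 and 3.77 CPM (2.71 ± 0.44, adjusted p = 2.01e-05). The exporter gene and the gene of the factor Spi-C thus both rose. Hmox1 measured 143, 281 and 141 CPM against 38.7, 38.9 and 41.0 CPM (1.08 ± 0.39, adjusted p = 0.0355). Cd163 measured 34.1, 85.9 and 55.9 CPM against 50.6, 36.1 and 53.1 CPM, with overlap, and was at -0.79 ± 0.39 (adjusted p = 0.111), or at -0.93 with the block (adjusted p = 0.0208). The change of haem oxygenase was the smaller beside that of the exporter, a difference that was not tested, and the haemoglobin receptor passed, as lower, with the block but not without it.

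Vcam1 measured 212, 253 and 119 CPM with TAM and 15.2, 10.9 and 10.4 CPM with vehicle (2.84 ± 0.40, adjusted p = 3.66e-06). Axl measured 68.0, 128 and 116 CPM against 20.7, 12.8 and 19.2 CPM (1.44 ± 0.37, adjusted p = 0.00335). Fcna measured 49.7, 33.0 and 25.2 CPM against 12.1, 7.90 and 8.78 CPM and did not pass (0.72 ± 0.39, adjusted p = 0.142), although its ranges were apart. In CPM, 9 of the 10 genes were apart and higher with TAM, but so were 51.9% of all genes with counts, so the ranges alone say little. TAM replicate 2 was the highest TAM library for 9 of the 10 genes.

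**Figure D3:**
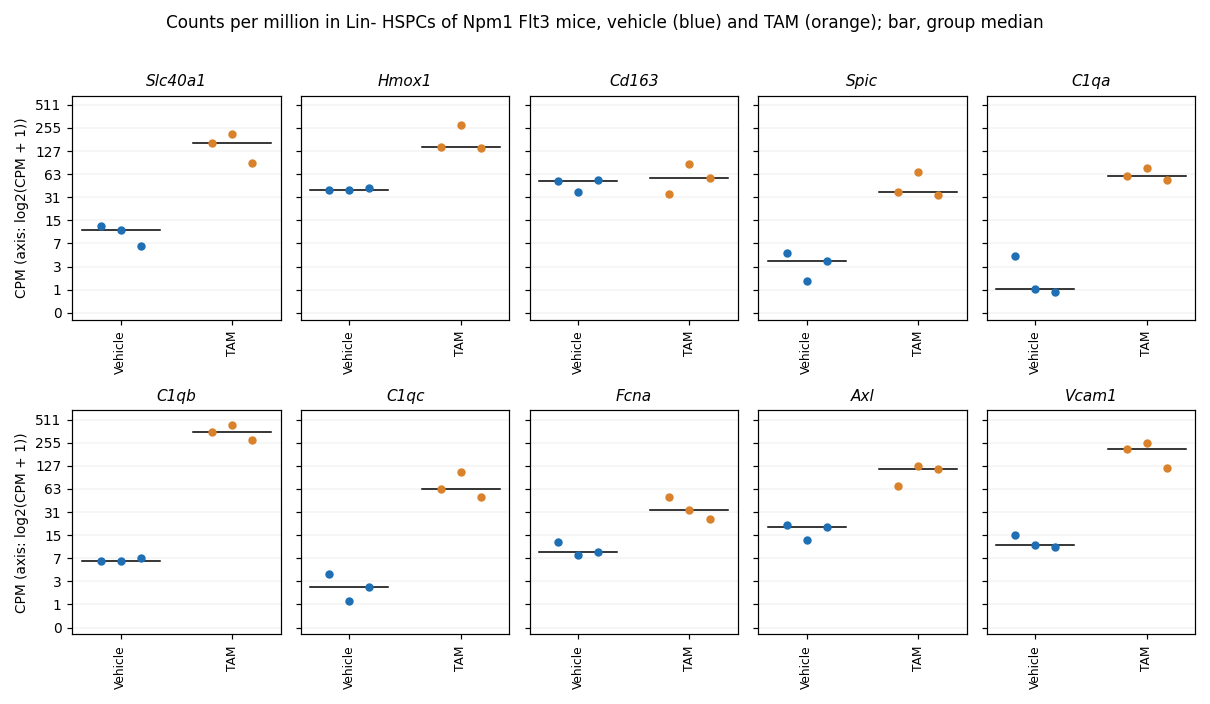
CPM of the 10 genes (vertical axis, log2(CPM + 1) scale with CPM at the ticks) in Lin- HSPC libraries of Npm1 Flt3 mice after 7 days of vehicle (blue) or TAM (orange); points are libraries and bars group medians. The groups are apart for 9 genes, most for C1qb at 279 to 432 CPM against 6.37 to 7.02 CPM, and overlap for Cd163.

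The size of these changes depends on how libraries are scaled. TMM factors were 1.32 to 1.67 in TAM and 0.48 to 0.87 in vehicle libraries, and the median log2 change of all genes was 0.56 with TMM, 0.30 with median-ratio factors and 1.64 with library totals alone. Of all calls, 32.1% were higher with TMM and 81.5% with library totals alone. Relative to the median of all genes, C1qb was at 3.97, 3.85 and 4.10 in that order, Slc40a1 at 2.20, 2.06 and 2.32, Vcam1 at 2.28, 2.17 and 2.36 and Spic at 2.15, 2.15 and 2.10. Cd163 was at -1.35, -1.42 and -1.30, and Fcna at 0.16, 0.06 and 0.27. C1qa, C1qb, C1qc, Slc40a1, Spic and Vcam1 rose under all 3 scalings. Axl (1.12, adjusted p = 0.0982) and Hmox1 (0.70, adjusted p = 0.308) did not pass with median-ratio factors, Fcna passed with library totals alone (1.91, adjusted p = 0.0032) and with a filter of 5 CPM, and the log2 change of Cd163 turned to 0.34 with library totals. Hmox1 did not pass without TAM replicate 2 (0.60, adjusted p = 0.13), vehicle replicate 1 (0.87, 0.0567) or vehicle replicate 3 (1.01, 0.12). Cd163 also fell without TAM replicate 2 (-1.25, adjusted p = 0.00646) or vehicle replicate 1 (-0.92, 0.0399). By DESeq2, Axl (adjusted p = 0.0574) and Hmox1 (0.295) did not pass.

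Markers of several cell types rose with the genes after TAM. Of 20 macrophage markers 10 rose (among them Nr1h3, Cd5l, Gpnmb, Timd4, Vsig4, Siglec1 and Marco) and 2 fell (Mrc1 and Trem2), with a median log2 change of 1.56. Cd5l, a secreted macrophage protein, measured 73.5, 35.5 and 10.6 CPM with TAM and 1.77, 2.35 and 1.52 CPM with vehicle (3.08 ± 0.56), and Siglec1, a sialic acid receptor of tissue macrophages, 59.9, 28.9 and 75.8 CPM against 15.9, 1.34 and 9.18 CPM (1.64 ± 0.51). The broader markers did not pass with TMM scaling, though in CPM they too were higher with TAM without overlap. Cd68 measured 325 to 461 CPM against 248 to 314 CPM, Emr1 76.1 to 195 against 48.2 to 58.9 and Mertk 24.8 to 31.5 against 2.81 to 10.9. By the test Cd68 was at -0.72 ± 0.37 (adjusted p = 0.126), Emr1 at 0.29 ± 0.40 (0.561) and Mertk at 0.87 ± 0.42 (0.106). The summed CPM of the macrophage markers was 1895 to 3945 with TAM and 1302 to 1700 with vehicle. Erythroid markers rose in 13 of 13 tested (median 5.16, summed CPM 1253 to 1871 against 6.07 to 30.5), late neutrophil markers in 8 of 8 (3.58), stromal and endothelial markers in 7 of 12 (1.43) and lymphocyte and plasma cell markers in 4 of 8 (1.83). Of 12 monocyte markers 3 rose and 3 fell (median -0.58), with a summed CPM of 25781 to 34786 with TAM against 7324 to 9711 with vehicle. GMP genes fell in 5 of 8. The part of these cell types in the rise of the 10 genes was not tested.

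Lists of genes that work with the 10 differed in direction with TMM scaling, and no set test was made. Of all genes tested, 10.1% rose and 21.3% fell. Of 22 haem and iron genes 3 rose, among them Blvrb (2.07 ± 0.36) and Trfr2, a transferrin receptor gene (2.40 ± 0.47), and 8 fell, among them Cp (-4.25 ± 0.42) and Ncoa4, which delivers ferritin for breakdown (-2.30 ± 0.38), with a median of -0.78 against 0.56 over all genes. Of 23 complement genes 6 rose and 3 fell (median 0.89), among them C5ar1, a receptor for complement C5a (2.26 ± 0.48), and Cfp, the properdin gene (-2.02 ± 0.38). Of 18 genes for the uptake of dying cells 5 rose and 4 fell (median -0.20), among them the scavenger receptor gene Cd36 (2.66 ± 0.43) and Mfge8, a bridging protein (-2.77 ± 0.46). Of 10 genes of Vcam1 ligands and related adhesion molecules 1 rose and 4 fell, the latter Pecam1, Icam2, Itgb1 and Itgb7. With library totals alone, 7 of the haem and iron genes rose and 4 fell, and 14 complement genes rose and 2 fell. In that fit 12 uptake genes rose and 4 fell, and 3 adhesion genes rose and 2 fell. The median log2 change of all genes was 1.64 there. The shares of 10.1% and 21.3% belong to the TMM fit, so these counts cannot be read against them.

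**Figure D4:**
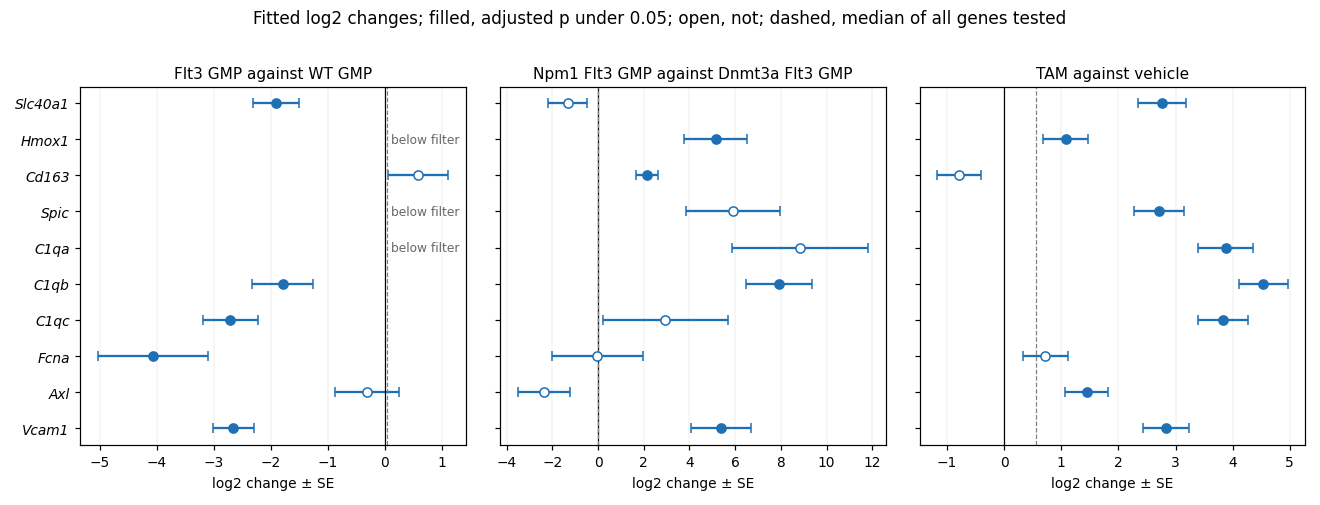
Fitted log2 changes ± SE (horizontal axis) of the 10 genes in Flt3 GMP against WT GMP, Npm1 Flt3 GMP against Dnmt3a Flt3 GMP, and TAM against vehicle; filled points passed at an adjusted p under 0.05, open points did not, and the dashed line is the median of all genes tested. Slc40a1, C1qb, C1qc and Vcam1 are below 0 on the left and above 0 on the right, and Cd163 is at 0.58 and -0.79.

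Set side by side, the tested contrasts covered different parts of the group. Slc40a1, C1qb, C1qc and Vcam1 fell in Flt3 GMP and rose after TAM, Fcna fell in Flt3 GMP and did not pass after TAM, and Axl rose after TAM and did not pass in Flt3 GMP. In Flt3 GMP the filter favoured a fall of Slc40a1, C1qc and Fcna in advance. There C1qb and Fcna did not pass by DESeq2 with the library of 1942 counts. Cd163 was higher in Npm1 Flt3 GMP than in Dnmt3a Flt3 GMP, and Slc40a1 did not pass there. The contrasts stand in different tables, and no test of the difference between them was made.

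**Figure D5:**
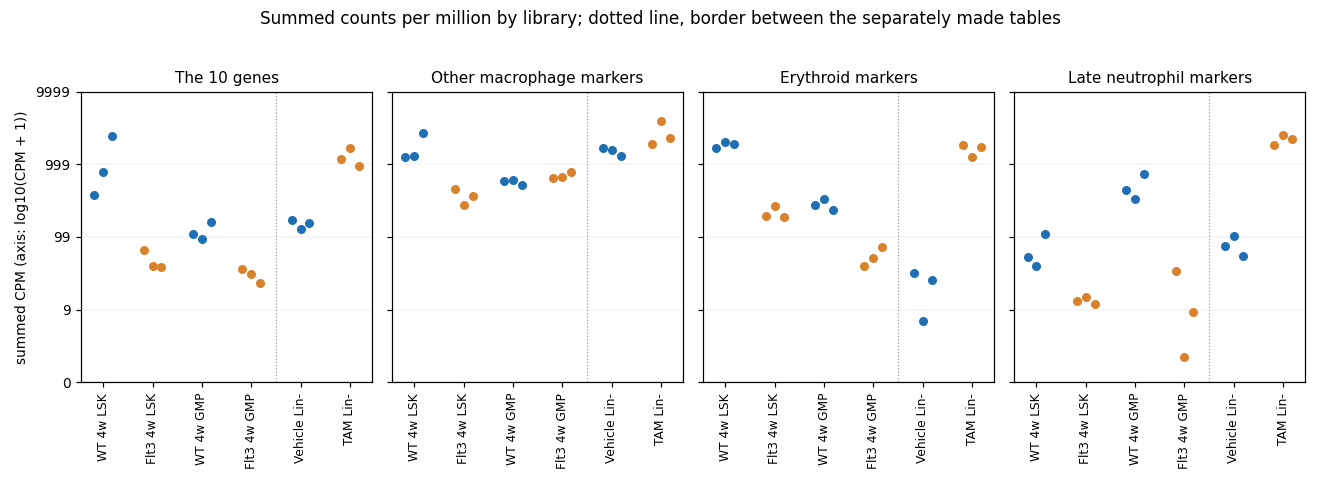
Summed CPM by library (vertical axis, log10(CPM + 1) scale with CPM at the ticks) of the 10 genes, 20 other macrophage markers, erythroid markers and late neutrophil markers in WT and Flt3 LSK and GMP at 4 weeks and in vehicle and TAM Lin- HSPCs; the dotted line separates the tables. The 10 genes sum to 382 to 2414 CPM in WT LSK, 37.3 to 66.1 CPM in Flt3 4w LSK, 128 to 169.4 CPM with vehicle and 960 to 1674 CPM with TAM. The macrophage, erythroid and late neutrophil markers all move in the same directions between these groups.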

How the data were processed

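RNA-seq counts per gene symbol were deposited by the authors as 2 tables of whole-number counts, not normalized. Per the submitters' processing notes, reads were handled with STAR and featureCounts on mm10; their versions are not given in the sources used here. Per the labels' protocols, libraries came from 2 Takara kits, one paired-end and one single-end with 3′ counting; which sample had which kit is not given in the sources used here, and levels are not corrected for gene length.

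The 10 genes and the 12 lists of related and marker genes (165 entries, of which 156 matched by symbol, 7 by synonym and 2 not) were chosen with earlier results of these data known. Named are the 10 genes, up to 4 genes of each list with the smallest p past the threshold, 7 defining macrophage markers, and the 8 genes most like the 10 in each table.

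Groups came from sample titles. edgeR 4.0.16 (R 4.3.3) fitted the quasi-likelihood model to the counts with TMM scaling, filterByExpr and Benjamini-Hochberg adjustment over all genes tested (threshold 0.05). Values after ± are standard errors, computed from the log2 change and its F statistic. The 15 WT and Flt3 libraries of a sort shared a fit, as did the 12 sorted libraries of the second table and the 6 Lin- HSPC libraries. The Flt3 8w GMP library of 1942 counts stayed in the fits. Exact intervals cover counting error only. Alternatives were DESeq2 1.42.0, median-ratio scaling, other filters, the replicate number or animal as a block and each library left out, and, chosen after seeing the data, library totals alone, fits without the library of 1942 counts and slopes without the 2-week libraries. Deviations of same-numbered TAM and vehicle libraries from their group means had correlations of 0.16, 0.30 and 0.11. Their sample codes differ, and no label pairs them. Libraries of different numbers were not compared, so these correlations cannot show a pairing. The block is therefore an alternative only. All 52 replicate pairs differed by more than sampling noise (lowest chi-square per degree of freedom 2.26).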

Additional observations from a re-analysis of the deposited data

Results flagged for a closer look

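In Npm1 Flt3 GMP a single library stood far from the other 3 for 3 of the genes. Axl was 3.63 CPM in replicate 2 and 0.0343 to 0.601 CPM in the others, C1qc was 0.669 CPM in replicate 2 and 0 to 0.0156 CPM in the others, and C1qa was 1.95 CPM in replicate 4 and 0 to 0.204 CPM in the others. These 3 came from 20 sets of 4 libraries examined (the 10 genes in Npm1 Flt3 LSK and GMP), and chance alone sets about 1 in 20 apart in this way.

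The 2 libraries left out of tests because title and sample code name different cell types also held counts of the 10 genes. Their summed level was 32.1 CPM in Dnmt3a Flt3 GMP replicate 2 and 23.3 CPM in Dnmt3a Flt3 LSK replicate 1.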

How the results depend on the processing

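Most values kept their direction and side of the threshold, and where one did not the cause was not tested. The shares of all genes given above belong to the main fits. Calls over all genes differ between settings, so the counts here and below cannot be read against those shares. With DESeq2 the number of the 10 genes called was 3 in Flt3 GMP against WT GMP (5 without the library of 1942 counts), 4 in Npm1 Flt3 against Dnmt3a Flt3 LSK and 6 in GMP, 6 after TAM, 3 in Npm1 Flt3 LSK against GMP and 2 for the difference of the LSK to GMP gap. With the 2 conflicting libraries placed by title, 1 was called in Npm1 Flt3 against Dnmt3a Flt3 LSK. In Npm1 Flt3 LSK against GMP, 0 were called with no filter and 2 with a filter of 5 CPM. The slope in Flt3 GMP gave 0 calls without the 2-week libraries, where Vcam1 was below the filter on low counts and not tested. Leaving out 1 library each gave 4 to 5 calls in Flt3 GMP, 3 to 4 at 4 weeks, 0 to 1 for the GMP slope, 0 to 1 in Npm1 Flt3 against Dnmt3a Flt3 LSK, 2 to 5 in GMP, 1 to 2 in Npm1 Flt3 LSK against GMP and 7 to 8 after TAM. The log2 change turned sign for some values that did not pass. Leaving out 1 library each moved Axl in Flt3 GMP from -0.77 to 0.61 (above 0 without WT GMP replicate 3), Cd163 at 4 weeks from -0.59 to 0.63 (the lowest without Flt3 4w GMP replicate 2; -0.04 without WT GMP replicate 1), and Axl at 4 weeks from -2.34 to 0.41 (above 0 without Flt3 4w GMP replicate 3, at 0.05, or WT GMP replicate 3). It moved the GMP slope of C1qb from -0.023 to 0.27 (below 0 without 2w replicate 3) and that of Axl from -0.011 to 0.16 (below 0 without 6w replicate 3), and without all 2-week libraries the slopes were -0.079 and -0.083. C1qb in Npm1 Flt3 LSK against GMP was at -0.0032 with the animal as a replicate block, and Cd163 after TAM at 0.34 with library totals.

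With the replicate number as a block, 5 of the 10 were called in Flt3 GMP, 4 at 4 weeks, 5 in Npm1 Flt3 against Dnmt3a Flt3 GMP, 1 in Npm1 Flt3 LSK against GMP and 9 after TAM (8 higher, 1 lower). WT and Flt3 4w GMP share only a number (correlations of 0.00, -0.01 and -0.02), and so do TAM and vehicle libraries. Over all genes, calls in Flt3 GMP were 2393, against 912 with DESeq2 and 1557 without WT GMP replicate 1, and at 4 weeks 1364, against 366 with DESeq2; the count was 770 when Flt3 4w GMP replicate 3 was left out and 889 when WT GMP replicate 1 was. In Flt3 GMP 1191 were higher and 1202 lower, against 1580 and 782 with median-ratio factors. After TAM calls were 7926, against 5142 without TAM replicate 1 and 5159 without TAM replicate 3. Totals of 306571 counts upward in the first table limit what can be seen of genes at a few CPM.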
